A study of Arabidopsis thaliana with 8 samples.

Results

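The Alc::LHY line is Arabidopsis thaliana of the Col-0 background that carries an extra copy of the clock gene LHY behind a promoter switched on by ethanol, and this is an account of what changed in that line between 0 h and 4 h after ethanol. The values come from the Alc::LHY channel of the arrays at 4 h and 0 h, which is Cy5 in replicate S and Cy3 in replicate I, or 4 of the 16 channels of the series. The aim was to separate genes that truly rose or fell in the induced line from genes that only failed to follow the course of wild type, so the wild-type channel of the same 4 of 8 arrays was fitted beside it.

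Seedlings of both lines were raised on agar plates under light and dark cycles and then kept in continuous light, and ethanol was given to the roots and afterwards as vapour in the plate. RNA of whole seedlings of Alc::LHY and of wild type (wt, Col-0) was hybridised together on 2-colour Agilent arrays at 0 h, at 2 h, at 4 h and at 8 h (replicate I) or 9 h (replicate S). There are 2 replicates, whose dyes are swapped. Replicate, slide and dye orientation are therefore the same split. The groups used are Alc::LHY at 4 h and 0 h and wild type at 4 h and 0 h, each of 2 RNA samples. The design text speaks of duplicate experiments, but nothing says how many seedlings were pooled or that cultures were separate, so p-values cover only the spread among these RNA samples. No group carried the ethanol switch without LHY. Within the line, the hours that passed, ethanol and LHY cannot be told apart. In RNA from whole seedlings, fewer cells of a type and less RNA per cell cannot be told apart either.

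LHY is a MYB-like transcription factor of the plant circadian clock that is made around dawn. Together with its close relative CCA1 it binds a short element in the promoters of evening genes such as TOC1, LUX and PRR5 and represses them, and the evening genes in turn act back on LHY and CCA1. The clock also sets the daily course of light-harvesting proteins, starch metabolism, growth, and stress and hormone responses.

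Levels are log2 signals after normalization within and between arrays, changes are differences of such levels at 4 h minus 0 h with a standard error (SE) from the fit over all channels, and genes were called at a Benjamini-Hochberg adjusted p under 0.05 with limma. Between 51.6% and 61.3% of the probes were well above background in the 4 Alc::LHY channels, and median raw spot signals were 126 (S) and 54 (I) at 4 h, against 128 (S) and 73 (I) at 0 h. Across the 21412 genes and unnamed transcripts tested, the change of replicate S and that of replicate I had a correlation of 0.807 in Alc::LHY and of 0.145 in wild type. These are descriptions across genes measured on the same 4 arrays. For some genes the wild-type samples of 4 h lay much farther from each other than the Alc::LHY ones did. LNK4 had levels of 9.33 (S) and 9.42 (I) in Alc::LHY at 4 h, against 8.33 (S) and 11.27 (I) in wild type at 4 h, and PIF4 had 7.66 (S) and 8.67 (I) in Alc::LHY against 8.66 (S) and 11.62 (I) in wild type. Results that compare the lines rest on these wild-type samples.

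The LHY probe itself (AT1G01060) was dim. Its level in Alc::LHY was 7.14 (S) and 6.84 (I) at 4 h, against 6.30 and 6.11 at 0 h, and in wild type it was 6.63 and 6.59 at 4 h, against 6.11 and 6.25 at 0 h. It was not well above background at 0 h in either line, so that its rise in Alc::LHY is a bound of at least 1.58-fold (adjusted p = 0.00382). Without the 0 h sample of replicate S the adjusted p was 0.0683, and over 16 alternative settings it lay between 5.76e-05 and 0.0683. The change in Alc::LHY was 0.36 above that of wild type, which did not pass (adjusted p = 0.157). No source used here says whether this probe matches the inserted copy, so it is no check of the labels. An unnamed transcript of the array, TA44692_3702, for which the tables used here hold no gene name, stood at 16.71 (S) and 18.14 (I) in Alc::LHY at 4 h, against 6.63 and 9.90 at 0 h. The wild-type values were 7.68 and 8.84 at 4 h, against 6.39 and 7.30 at 0 h. Its change in Alc::LHY of 9.16 ± 0.76 (SE, n = 2 at each time; adjusted p = 8.72e-05) was larger than that of any gene named here, and it exceeded the wild-type change by 7.75.

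Between 0 h and 4 h, 6036 genes or transcripts changed in Alc::LHY. Of the 21412 tested, 13.7% rose (2939) and 14.5% fell (3097), and each had the same sign in both replicates. A rise of over 1 log2 unit was measured for 647 and a fall of that size for 895, whereas 151 rose and 41 fell by over 2 units, so the largest changes were more often rises. Both 4 h values lay above both 0 h values for 2918 of the 2939 that rose, and below both for 3019 of the 3097 that fell. The calls rest on these same values, so neither this separation nor the shared sign is a separate check of them. What share of all genes tested separates in this way was not counted. Rises made up 48.7% of the called genes, but 32.9% when arrays were only centred on their median and 29.5% without normalization between arrays, so the balance of the directions is not settled by these data. In wild type on the same arrays, 116 rose (0.542%) and 64 fell (0.299%). Without the replicate block, the term for replicate and so for slide (the dye term kept), 2203 rose and 2275 fell in Alc::LHY, against 19 that rose and 3 that fell in wild type. Without the 0 h sample of replicate S the wild-type counts were 1 and 0, and without the 4 h sample of replicate S they were 150 and 159.

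**Figure D1:**
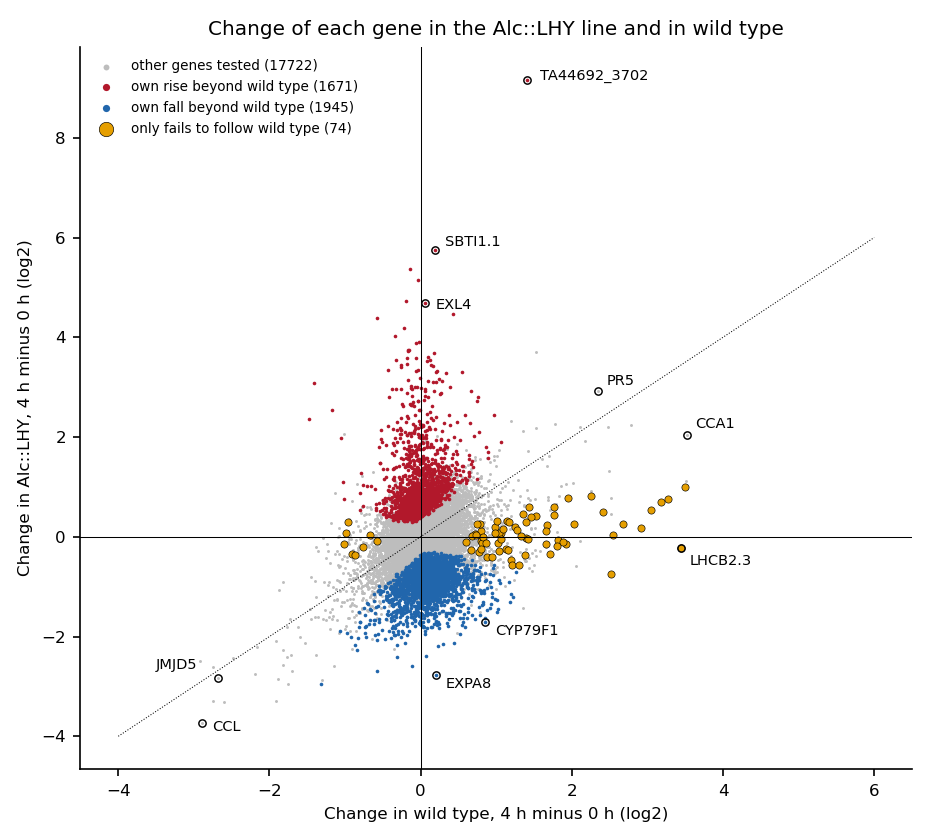
Each point is 1 of the 21412 genes or transcripts, placed by its change from 0 h to 4 h in wild type (horizontal, log2) and in Alc::LHY (vertical, log2); the dotted line marks equal change. Red and blue points are the 1671 own rises and 1945 own falls of the induced line. The 74 outlined points are genes that only failed to follow wild type, whose change in Alc::LHY did not pass the threshold.

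The test of the difference sorted these genes. The change in Alc::LHY minus the change in wild type passed for 4649 genes, with 2038 higher (9.52%) and 2611 lower (12.2%). Of the 2611 with a lower change, 1945 fell in Alc::LHY itself (74.5%, called own falls below), 66 did so only because wild type rose while the Alc::LHY change did not pass (2.53%), 9 rose less than in wild type, and for 591 neither line's change passed alone. Of the 2038 with a higher change, 1671 rose in Alc::LHY itself (82%, own rises), 8 only failed to follow a fall of wild type, and for 359 neither line passed alone. With a sample left out, own falls numbered 713 to 1214 and own rises 667 to 909, on the 4 arrays of 0 h and 4 h alone 922 and 570, and with median centring in the place of loess 1 and 11. Of 74 named genes with a difference called, 42 kept it with any sample left out, 53 on those 4 arrays alone and 6 with median centring, and these 6 (SBTI1.1, EXL4, AT1G12630, EXPA20, RUG2 and AT1G45160) passed under all 15 alternatives that give a difference. Where a count of 16 alternatives is given below, it is for the change within Alc::LHY. Own falls were 9.08% and own rises 7.8% of all genes tested, the background for counts of own changes in the lists below. Of the own changes, 725 falls and 560 rises were over 1 log2 unit. The number that only failed to follow, 74 in all, depended on the wild-type samples. It was 1 without the 0 h sample of S, 122 without the 4 h sample of S, 4 without the 4 h sample of I, 7 without the 0 h sample of I and 9 without the replicate block. Both lines changed together, with no difference called, for 49 genes that fell and 22 that rose. A further 1103 fell and 1237 rose in Alc::LHY alone with a difference from wild type that did not pass, and these can be placed in neither class.

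The largest rises were many times the spread between replicates. SBTI1.1 (AT1G01900), a subtilisin-like protease, stood at 13.59 (S) and 13.00 (I) in Alc::LHY at 4 h, against 7.35 and 7.75 at 0 h, a 53.5-fold rise (5.74 ± 0.23, adjusted p = 1.84e-06). In wild type its levels were 7.68 and 7.33 at 4 h, against 7.29 and 7.34 at 0 h. The Alc::LHY samples of 4 h were thus apart from all the others, which lay close together. The gene was picked for its rise, so this separation is no separate check. EXL4 (AT5G09440), of the EXORDIUM-like family of secreted growth-related proteins, had 15.44 and 16.32 at 4 h, against 10.71 and 11.65 at 0 h (4.69 ± 0.27). EMB3120 (AT3G14900) had 12.54 and 12.71 at 4 h, against 8.25 and 8.06 at 0 h (4.47 ± 0.28). Both had reached most of that level by 2 h, when EXL4 stood at 15.54 and 16.42 and EMB3120 at 11.30 and 11.47. Next came AT1G12630 with a rise of 4.39 ± 0.30, the cell wall expansin EXPA20 with 3.90 ± 0.15, the receptor-like kinase CCR1 (AT3G09780) with 3.75 ± 0.27, RUG2 (AT5G48330) with 3.74 ± 0.15 and the cystatin CYS2, an inhibitor of cysteine proteases, with 3.71 ± 0.40. The lectin receptor kinase LECRKA4.1 rose by 3.71 ± 0.69, and AT1G45160 by 3.58 ± 0.12. SOB3, an AT-hook DNA-binding protein that restrains the lengthening of the hypocotyl, had 12.08 and 11.62 in Alc::LHY at 4 h, against 8.21 and 8.38 at 0 h (3.55 ± 0.18), and AT4G25390 rose by 3.52 ± 0.31. Of these 12, 11 were own rises, with wild-type changes between -0.58 and 0.43, and their rises within Alc::LHY passed under all 16 alternatives. LECRKA4.1 was the exception, since it had 11.87 and 11.07 in Alc::LHY at 4 h against 8.26 and 9.28 in wild type at 4 h and its difference did not pass (2.19, adjusted p = 0.0786). Its rise was also lost without the 0 h sample of S (adjusted p = 0.0532, the highest over the alternatives, of which the lowest was 0.000221).

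Among the largest falls, genes shared with wild type stood beside genes that fell in Alc::LHY alone. CCL (AT3G26740) had 10.12 (S) and 10.03 (I) in Alc::LHY at 4 h, against 13.79 and 13.82 at 0 h, a 13.3-fold fall (-3.74 ± 0.54, adjusted p = 0.00126). Wild type fell too, with 11.80 and 9.98 at 4 h, against 13.99 and 13.59 at 0 h (-2.90), and the difference did not pass (-0.84, adjusted p = 0.374). JMJD5, a jumonji-domain protein tied to the clock, fell in both lines with no difference called (-2.83 ± 0.29 in Alc::LHY, -2.68 in wild type). EXPA8 (AT2G40610), an expansin that loosens the cell wall, had 8.36 and 9.04 in Alc::LHY at 4 h, against 11.24 and 11.70 at 0 h (-2.77 ± 0.36, adjusted p = 0.000747). Wild type had 11.23 and 12.12 at 4 h, against 11.44 and 11.51 at 0 h, so that its low values were those of Alc::LHY at 4 h. FRO8, of the ferric reductase family, had 8.97 and 8.91 in Alc::LHY at 4 h, against 11.66 and 11.40 at 0 h (-2.58 ± 0.16), with wild-type values between 10.88 and 11.54. The gibberellin-regulated GASA6 (-2.68 ± 0.37) and the aldolase FBA5 (-2.95 ± 0.31) were own falls as well, FBA5 with a wild-type change of -1.32. The difference of FBA5 was lost without the 4 h sample of S or either 0 h sample (adjusted p up to 0.087) and that of GASA6 without either sample of S (up to 0.108). For AT1G19960 (-3.29 ± 0.57), the thioredoxin WCRKC1 (-2.96 ± 0.49), ACD6, a membrane protein of defence (-2.87 ± 0.83), AT5G03350 (-2.85 ± 0.71), AT3G22235 (-2.60 ± 0.81) and BT2 (-2.59 ± 0.66), the difference from wild type did not pass, and each also had a lower mean in wild type at 4 h than at 0 h. Calls of 4 of these falls depended on single samples. ACD6 and AT3G22235 lost theirs whichever of the 4 samples was left out (adjusted p up to 0.184 and 0.2), AT5G03350 without the 4 h sample of I or the 0 h sample of S (up to 0.0558), and BT2 without either 0 h sample (up to 0.11). Over the alternatives their adjusted p lay between 0.00181 and 0.184 for ACD6, 0.00109 and 0.2 for AT3G22235, 0.000249 and 0.0558 for AT5G03350, and 0.000239 and 0.11 for BT2.

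**Figure D2:**
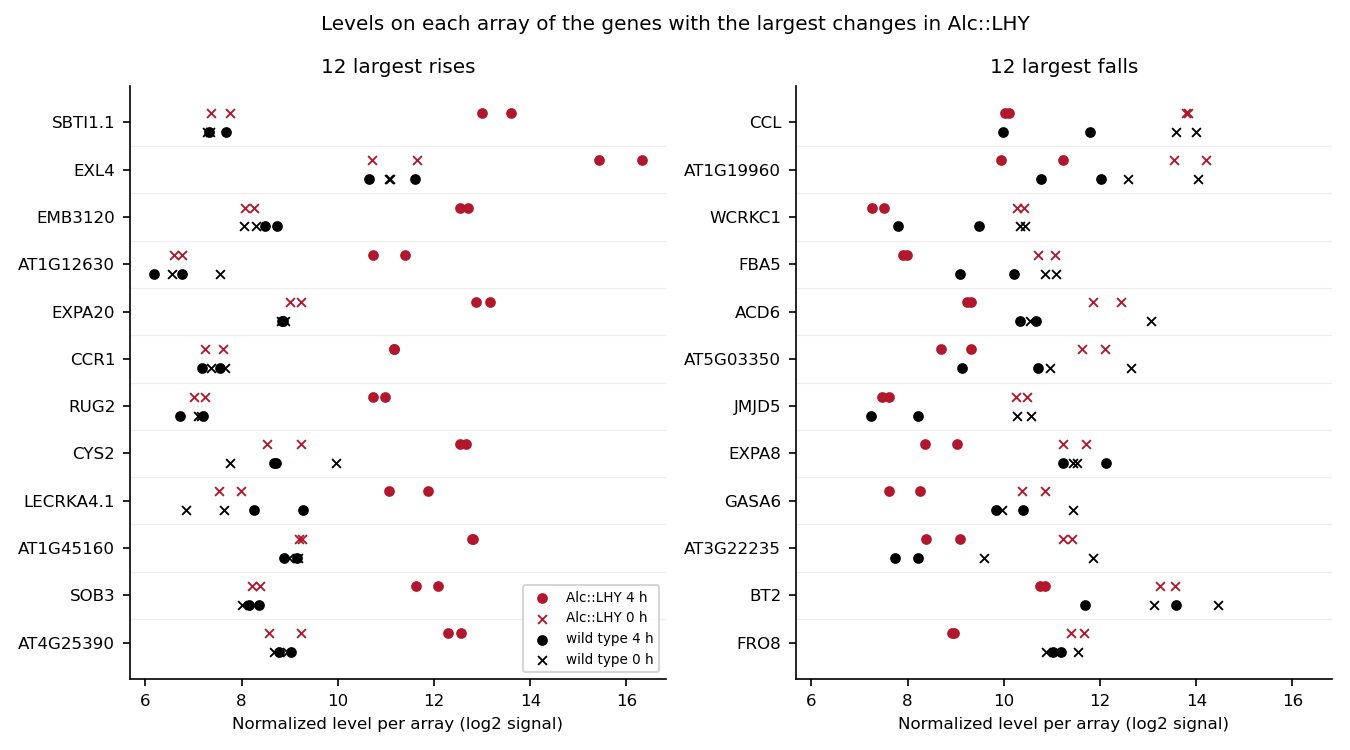
Normalized level (log2 signal) on each array of the 12 genes with the largest rises (left) and falls (right) in Alc::LHY, with Alc::LHY in red, wild type in black, circles at 4 h and crosses at 0 h. On the left the red circles stand alone to the right of the other points, while on the right the black circles of CCL and JMJD5 move left with the red ones and those of EXPA8 and FRO8 do not.

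Of the genes that rose, 188 had a 0 h level in Alc::LHY not well above background, and of those that fell, 48 had such a level at 4 h, so their folds are lower bounds. The largest such rises were at least 41.2-fold for AT4G29640, 35.4-fold for AT5G62730, 26.6-fold for AT3G63360 and 18.1-fold for BG3 (AT3G57240), a glucanase that cleaves beta-1,3-glucan. AT4G29640 stood at 12.35 (S) and 11.25 (I) at 4 h, against 6.39 and 6.47 at 0 h, and its wild-type values lay between 5.64 and 6.45. All 4 rises passed under every one of the 16 alternatives and were own rises, although with median centring no difference of the 4 from wild type passed (adjusted p between 0.0501 and 0.0946). The bounds of the falls were small, at least 2.38-fold for AT5G43440, 1.82-fold for AT4G15620, 1.61-fold for AT1G36940 and 1.48-fold for AT2G26695. AT5G43440 fell in wild type too (-0.93, adjusted p = 0.0226) and AT4G15620 did not differ from it by the test, whereas the other 2 were own falls, with differences that each passed in 1 of the 4 fits with a sample left out. Of these falls, AT4G15620 lost its call without the 4 h sample of I (adjusted p = 0.0508; 0.00255 to 0.0508 over the alternatives), AT1G36940 without the 4 h sample of S or either 0 h sample (up to 0.101; 0.000332 to 0.151) and AT2G26695 whichever sample was left out (up to 0.231; 0.00497 to 0.282).

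The largest differences among the own falls, taken over genes well above background in both lines at both times, were those of EXPA8, AT1G52000, CYP79F1, XTH6, MBP1 and AKN2. AT1G52000 had 10.91 and 9.88 in Alc::LHY at 4 h, against 12.63 and 12.42 at 0 h, while wild type had 13.26 and 12.30 at 4 h, against 12.61 and 12.06 at 0 h. Its difference of -2.57 came after the -2.97 of EXPA8. CYP79F1, which starts the synthesis of glucosinolates, sulphur-rich defence compounds of the cabbage family, from methionine, had 9.46 and 9.16 in Alc::LHY at 4 h, against 11.15 and 10.88 at 0 h, while wild type had 11.31 and 11.79 at 4 h, against 10.84 and 10.55 at 0 h (difference -2.56). The 4 h values of Alc::LHY were thus below, and those of wild type above, every 0 h value of either line. The gene was picked by this difference, so the separation is no separate check. A second, dimmer probe of CYP79F1 changed by -0.62 (S) and -0.27 (I) in Alc::LHY, less than the one used. XTH6, a xyloglucan-modifying enzyme (difference -2.49), MBP1, which binds the glucosinolate-cleaving enzyme myrosinase (-2.47), and AKN2, a kinase that makes the sulphate donor used in glucosinolate synthesis (-2.47), followed. The fall of XTH6 within Alc::LHY (-1.32 ± 0.43) was lost whichever sample was left out (adjusted p up to 0.226; 0.00371 to 0.226 over the alternatives), and that of CYP79F1 (-1.71 ± 0.37) without the 4 h sample of S or either 0 h sample (up to 0.0782; 0.00732 to 0.0782). That of MBP1 (-1.62 ± 0.31) passed with any sample left out and reached an adjusted p of 0.0677 under another setting. The difference was lost without either sample of S for XTH6 (adjusted p up to 0.104) and without the 0 h sample of I for CYP79F1 (0.0557).

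Genes that only failed to follow looked different. LHCB2.3 (AT3G27690), a protein of the light-harvesting antenna, had 11.25 (S) and 11.68 (I) in Alc::LHY at 4 h, against 11.31 and 12.06 at 0 h, a change of -0.22 ± 0.41 (adjusted p = 0.729). In wild type it had 13.48 and 14.93 at 4 h, against 11.00 and 10.51 at 0 h, a rise of 3.45 (adjusted p = 0.0129). The difference of -3.67 therefore lay in the wild-type values. It passed with any sample left out, but not with median centring (adjusted p = 0.106). The same held for LHCB3, with a change of 0.04 ± 0.42 in Alc::LHY and of 2.54 in wild type, and for LHCB2.2, with -0.75 ± 0.46 and 2.51. GBSS1, the starch synthase that makes amylose, had 9.94 and 9.32 in Alc::LHY at 4 h, against 9.66 and 8.52 at 0 h, while wild type had 11.19 and 12.14 at 4 h, against 9.47 and 7.77 at 0 h. The thionin gene AT1G66100, with a mean of 11.17 in Alc::LHY at 4 h, against 10.17 at 0 h (adjusted p = 0.113), and the B-box gene BBX16, with a change of 0.70 ± 0.38, were higher at 4 h in both replicates of Alc::LHY without passing, and rose in wild type by 3.49 and by 3.17. A p that misses the threshold does not show that a gene stayed level, and LHCB2.2 fell in Alc::LHY without the 4 h sample of S (adjusted p = 0.0157; up to 0.885 over the alternatives). Without either sample of I the differences of LHCB3 and AT1G66100 were lost (adjusted p up to 0.0989 and 0.0964), and without the 0 h sample of I that of GBSS1 (0.1). In the other direction, 3 of the 8 genes that failed to follow a fall of wild type were measured throughout, and their changes were small. AT4G33490 changed by -0.35 ± 0.15 in Alc::LHY and by -0.90 in wild type, AT2G37200 by -0.21 ± 0.14 and by -0.76, and AT5G27280 by -0.36 ± 0.13 and by -0.87. Each of these 3 differences passed in 1 of the 4 fits with a sample left out (adjusted p up to 0.173, 0.213 and 0.27).

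The levels at 2 h and at 8 to 9 h are in none of the contrasts that sorted the genes, although those arrays entered the same normalization and fit and so its estimates of spread and of the dye and replicate terms. At 2 h, 1733 of the 1945 own falls (89.1%) had a lower level in Alc::LHY than in wild type on both arrays, against 33.5% of all tested, and 1520 of the 1671 own rises (91%) had a higher one, against 32.5% of all. At 8 to 9 h these numbers were 1929 (99.2%, against 40.3%) and 1634 (97.8%, against 38.5%). When genes were sorted by a fit of the 4 arrays of 0 h and 4 h alone, with the normalization over all arrays kept, 845 of 921 own falls (91.7%) lay below wild type on both arrays at 2 h and 917 (99.6%) at 8 to 9 h, and 560 of 570 own rises (98.2%) lay above it at 2 h and 567 (99.5%) at 8 to 9 h. The median level of Alc::LHY minus wild type over the own falls was 0.04 at 0 h, -0.54 at 2 h, -0.94 at 4 h and -0.91 at 8 to 9 h. Over the own rises it was 0.00, 0.44, 0.80 and 0.75. Of the 66 genes that only failed to follow a rise, 51 lay below wild type on both arrays at 2 h and 64 at 8 to 9 h, with medians of 0.06, -0.39, -1.12 and -0.92 at the 4 times. For each class, the medians at 0 h and 4 h come from the values that sorted the genes, so the sorting set them. Only the medians at 2 h and at 8 to 9 h lie outside those contrasts. The medians over all tested genes were 0.01, 0.00, -0.01 and -0.01.

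Among the 13 morning MYB-like and LNK genes of the clock, 7 rose, 1 fell and 5 did not pass in Alc::LHY, with a median change of 0.75, and 4 rose in wild type, with a median of 1.52. Over all genes 13.7% rose and 14.5% fell in Alc::LHY, and 0.542% rose in wild type. The median change over all genes was -0.02 in Alc::LHY and 0.01 in wild type. CCA1, the closest relative of LHY, had 9.84 (S) and 9.60 (I) in Alc::LHY at 4 h, against 7.57 and 7.77 at 0 h (2.05 ± 0.26, adjusted p = 0.000669). In wild type it had 10.28 and 11.05 at 4 h, against 7.22 and 7.05 at 0 h (3.53, adjusted p = 0.00148). CCA1 rose in both lines, by 1.48 less in Alc::LHY (adjusted p = 0.00811). That difference was lost without the 0 h sample of I (-0.93, adjusted p = 0.109), on the 4 arrays alone and with median centring (0.27). LNK2, a co-activator that works with the RVE proteins, rose by 1.32 ± 0.28 in Alc::LHY and by 2.49 in wild type (difference -1.17), and RVE8, which activates evening genes, by 0.81 ± 0.20 and by 1.69 (difference -0.88). The difference of LNK2 passed only without the 4 h sample of S among the fits with a sample left out (adjusted p up to 0.25), and that of RVE8 in none of them (0.0627 to 0.154). RVE3 rose by 1.56 ± 0.23 in Alc::LHY and by 1.60 in wild type, with no difference called. RVE5 alone was an own rise, with 9.93 and 9.89 in Alc::LHY at 4 h, against 9.36 and 9.05 at 0 h (0.71 ± 0.12), and a wild-type change of 0.18 that did not pass. Its difference of 0.53 (adjusted p = 0.023) was lost whichever sample was left out (0.0689 to 0.175), on the 4 arrays alone and with median centring. LNK3 (2.24 ± 0.53) and LNK4 (9.33 and 9.42 at 4 h, against 7.29 and 7.06 at 0 h) rose in Alc::LHY, and wild-type values of replicate I at 4 h were far above those of S for both, 10.65 against 8.30 for LNK3. RVE2 was the one that fell (-1.55 ± 0.44), with 9.45 and 9.64 in Alc::LHY at 4 h, against 11.15 and 11.03 at 0 h. No difference from wild type was called for LNK3, LNK4 or RVE2. RVE1 (0.75 ± 0.30), RVE4 (0.03 ± 0.19), RVE6 (0.37 ± 0.13), RVE7 (0.25 ± 0.18) and LNK1 (0.06 ± 0.16) did not pass. Leaving out the 0 h sample of S ended the calls of LNK2 (adjusted p = 0.0765; 0.0013 to 0.0843 over the alternatives), and leaving out either 0 h sample those of LNK3 (up to 0.109; from 7.51e-05), LNK4 (up to 0.15; from 0.000111) and RVE2 (up to 0.175; from 0.000777). RVE8 lost its call without either sample of I (up to 0.185; from 0.00908), and RVE5 reached 0.122 under another setting.

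Of the 13 daytime and evening clock genes tested (of 14), 7 fell, none rose and 6 did not pass in Alc::LHY. Over all genes 14.5% fell and 13.7% rose there. The median change of the 13 was -0.86 in Alc::LHY and -0.88 in wild type. In wild type 1 fell by the adjusted p of limma, against 0.299% of all genes, and 7 were lower at an unadjusted p under 0.05. The share over all genes at that p was counted only under alternative settings, as 3285 of 21412 in either direction without background subtraction. TOC1, an evening repressor of LHY and CCA1, had 7.89 (S) and 7.83 (I) in Alc::LHY at 4 h, against 9.37 and 9.51 at 0 h (-1.58 ± 0.22, adjusted p = 0.00113). Wild type had 8.65 and 7.75 at 4 h, against 9.43 and 9.30 at 0 h (-1.16, adjusted p = 0.0521). The wild-type sample of replicate I at 4 h was thus as low as those of Alc::LHY, and that of S was higher. LUX, a DNA-binding part of the evening complex (-1.85 ± 0.28), PRR5, a repressor of the afternoon (-1.60 ± 0.24), PRR3 (-1.66 ± 0.28) and ELF4, another part of the evening complex (-1.65 ± 0.45), fell too. For these 5 genes the difference from wild type did not pass (adjusted p between 0.0885 and 0.654). FKF1, a blue-light receptor that promotes flowering, fell in both lines with no difference called (-0.86 ± 0.14 in Alc::LHY, -0.89 in wild type). CHE, a repressor of CCA1, was an own fall, with 9.32 and 10.44 in Alc::LHY at 4 h, against 11.44 and 11.92 at 0 h (-1.80 ± 0.28), and 11.56 and 11.97 in wild type at 4 h, against 11.57 and 11.69 at 0 h. Its difference was -1.93 (adjusted p = 0.0033). GI (-0.02 ± 0.21), PRR7 (0.15 ± 0.25), PRR9 (0.12 ± 0.19), ZTL (0.03 ± 0.12), LKP2 (-0.30 ± 0.18) and BOA (-0.29 ± 0.38) did not pass in Alc::LHY. ELF4 lost its call without the 4 h sample of S or either 0 h sample (adjusted p up to 0.175; from 0.0115) and PRR3 without the 0 h sample of I (0.0571; from 0.00205), whereas the falls of TOC1, LUX, PRR5, FKF1 and CHE within Alc::LHY passed under all 16 alternatives. The difference of CHE passed with any sample left out (up to 0.0446), but not with median centring (0.188).

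**Figure D3:**
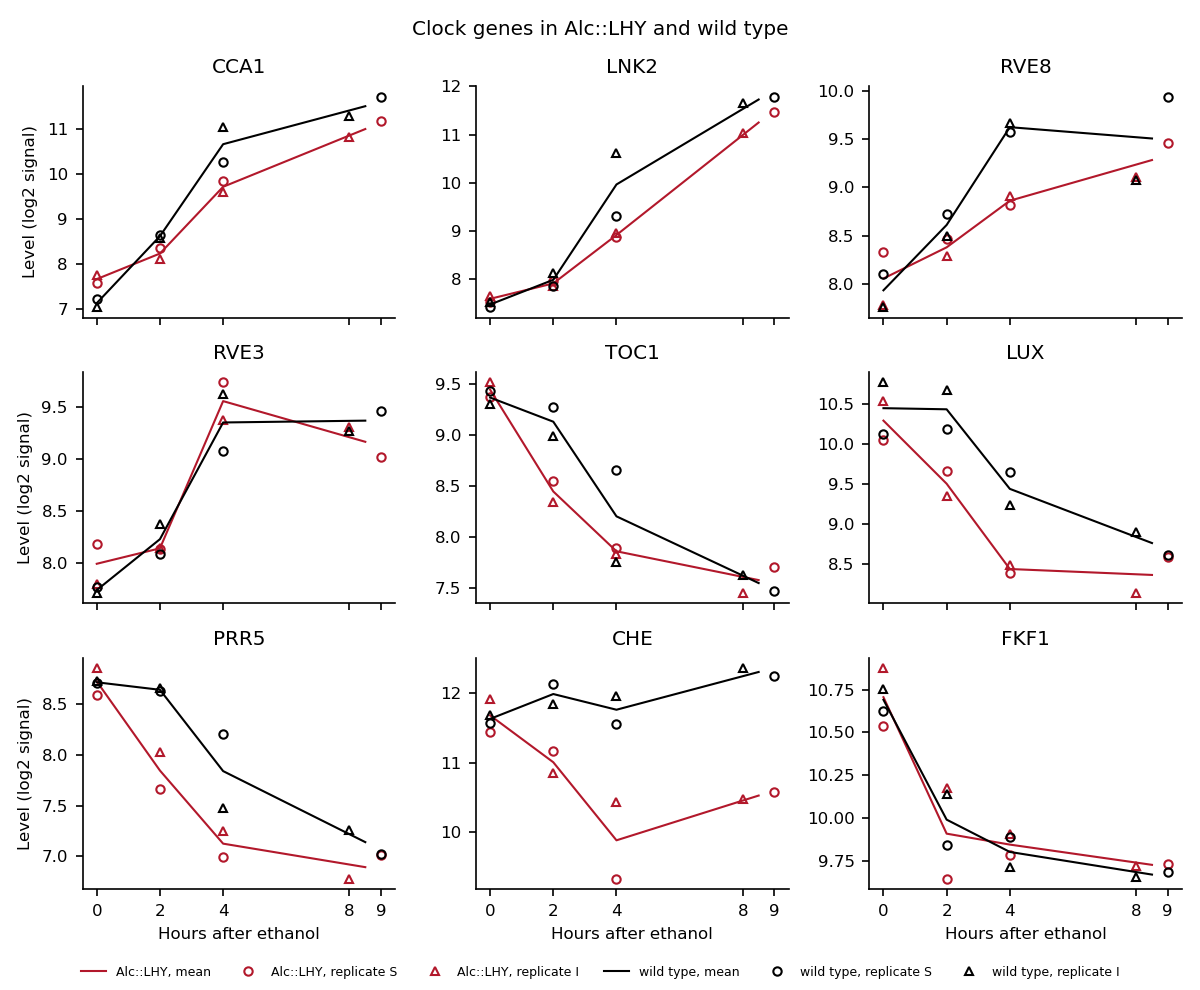
Normalized level (log2 signal) of 9 clock genes at 0, 2, 4 and 8 h (replicate I) or 9 h (replicate S) after ethanol, with Alc::LHY in red and wild type in black, circles for replicate S, triangles for replicate I and lines for the means of the 2 replicates. The mean lines of CCA1, LNK2, RVE8 and RVE3 run up and those of TOC1, LUX, PRR5 and FKF1 run down between 0 h and 4 h in both colours, while that of CHE runs down in red alone.

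Among 19 output and flowering genes of the clock, 4 rose and 5 fell in Alc::LHY (median change -0.13), against 13.7% and 14.5% of all genes, while 5 rose and none fell in wild type (median 0.35), against 0.542% and 0.299%. BBX19, a B-box protein that delays flowering, had 9.89 and 9.54 in Alc::LHY at 4 h, against 8.20 and 7.80 at 0 h (1.71 ± 0.17, adjusted p = 0.000177), and rose by 1.42 in wild type with no difference called. COL2, a relative of the flowering gene CO, rose by 1.13 ± 0.27 in Alc::LHY and by 3.51 in wild type (difference -2.38). CDF1, a repressor of CO, changed by -0.26 ± 0.20 in Alc::LHY and rose by 1.15 in wild type, and COL1 changed by 0.14 ± 0.19 and rose by 1.27, so that both only failed to follow. CAT3, a catalase whose transcript peaks in the evening, had 12.12 and 12.77 in Alc::LHY at 4 h, against 13.48 and 14.20 at 0 h (-1.40 ± 0.24), and was an own fall, as were CAT2 (-0.59 ± 0.19) and BBX22 (-0.74 ± 0.15). CAT3 was below wild type at 4 h (13.49 and 13.17) in both replicates. Its difference of -1.03 (adjusted p = 0.0263) and that of BBX22 each passed in 1 of the 4 fits with a sample left out (up to 0.214 and 0.194), and that of BBX25 was lost without either sample of S (up to 0.123). BBX25 rose by 0.82 ± 0.19 in Alc::LHY, less than in wild type (difference -1.01). BBX25 lost its call whichever sample was left out (adjusted p up to 0.122; 0.00507 to 0.164 over the alternatives) and BBX22 without the 0 h sample of I (0.103; from 0.00569). Leaving out single samples moved the count that rose to between 1 and 3 and the count that fell to between 1 and 3.

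The light-harvesting proteins (LHC) and the small subunit of Rubisco, the enzyme that fixes carbon dioxide, were mostly genes with no change called in Alc::LHY. None of the 21 tested (of 22) rose or fell in Alc::LHY by limma's adjusted p. At an unadjusted p under 0.05 by limma 6 fell, while over all genes 8484 of 21412 passed that p in either direction. The median change of the 21 was -0.39. That median was -0.76 without the 0 h sample of S, -0.06 without the 0 h sample of I and -0.07 when all probes of each gene were averaged. In wild type 6 rose, against 0.542% of all genes, and the median was 1.02. For 15 of the 21 the change in Alc::LHY was lower by the test of the difference, against 12.2% of all, and with median centring for none. The brightest probe is used here, and dimmer probes differed from it for some genes, with mean changes in Alc::LHY of 0.35, 0.84 and 0.19 for LHCB2.2, up to 0.72 for LHCA4 and up to 0.62 for LHCB3. LHCB4.2 had 13.11 and 13.81 in Alc::LHY at 4 h, against 13.53 and 14.51 at 0 h (-0.56 ± 0.20, adjusted p = 0.0669). Wild type had 14.76 and 15.16 at 4 h, against 13.45 and 13.87 at 0 h (adjusted p = 0.0257). The 4 RBCS genes had no difference called, with changes between -0.36 and 0.09 in Alc::LHY. Leaving out single samples gave between 0 and 3 falls within Alc::LHY and between 3 and 16 lower differences. Copies of the LHC and RBCS genes are nearly identical, and whether each probe tells its copy apart was not tested.

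Of 9 chlorophyll synthesis genes tested (of 10), 3 fell and none rose in Alc::LHY (median -0.32), against 14.5% and 13.7% of all genes, while 4 rose in wild type (median 0.86), against 0.542%. PORB, which reduces protochlorophyllide in light, had 10.71 and 11.00 in Alc::LHY at 4 h, against 12.49 and 13.14 at 0 h (-1.96 ± 0.43, adjusted p = 0.00874). GUN4, a regulator of the enzyme that inserts magnesium, fell by 0.86 ± 0.20 in Alc::LHY and rose by 1.04 in wild type, and CRD1, an enzyme of a later step, fell by 0.56 ± 0.15 in Alc::LHY and rose by 0.97 in wild type. These 3 were own falls, though the difference of PORB (-1.66) passed in 1 of the 4 fits with a sample left out (adjusted p up to 0.28). CHLH, a subunit of the magnesium-inserting enzyme, changed by 0.07 ± 0.13 in Alc::LHY and rose by 1.04 in wild type, so that it only failed to follow, as did CAO (-0.13 ± 0.19 and 1.02). With any single sample left out 1 of the 9 fell in Alc::LHY. PORB lost its call without either 0 h sample (adjusted p up to 0.127; from 0.00279), GUN4 without either 4 h sample or the 0 h sample of S (up to 0.12; from 0.00642) and CRD1 without either 4 h sample or the 0 h sample of I (up to 0.207; from 0.0155).

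Of 17 genes of glucosinolate synthesis tested (of 18), 13 fell and none rose in Alc::LHY, against a background of 14.5% that fell. All 13 were own falls, against 9.08% of all genes. The median change was -1.08 in Alc::LHY and 0.69 in wild type, where by limma 12 rose at an unadjusted p under 0.05 and none after adjustment. Over all genes that unadjusted p was passed in wild type by 3285 of 21412, in either direction, without background subtraction. MAM1, which lengthens methionine side chains, had 10.73 (S) and 10.52 (I) in Alc::LHY at 4 h, against 12.12 and 12.26 at 0 h (-1.56 ± 0.22, adjusted p = 0.00109), while wild type had 12.60 and 12.71 at 4 h, against 12.13 and 11.60 at 0 h. SOT18, the sulphotransferase of the last core step, had 10.87 and 11.05 in Alc::LHY at 4 h, against 11.90 and 12.31 at 0 h (-1.15 ± 0.14). SUR1, the lyase of the shared core pathway, had 9.10 and 8.92 at 4 h, against 9.95 and 10.24 at 0 h (-1.08 ± 0.15). The 4 h values of these genes in Alc::LHY lay below all their 0 h values and below wild type at 4 h. The genes were picked by a small p on these same values, so this separation is no separate check. The glucosyltransferase UGT74C1 (-0.82 ± 0.13), the regulator MYB29, which switches on the methionine branch (-1.15 ± 0.19), and MYB34, which switches on the tryptophan branch (-0.93 ± 0.17), fell. CYP79B2 (-1.63 ± 0.34) and CYP79B3 (-1.48 ± 0.24), which start the tryptophan branch, fell as well. Genes of both branches, of the core pathway and of its regulators were thus among the 13. MAM3 (-0.48 ± 0.69), MYB28 (-0.39 ± 0.13), CYP83B1 (-0.40 ± 0.19) and MYB51 (-0.27 ± 0.23) did not pass. Leaving out single samples gave between 9 and 12 falls, and between 11 and 14 lower differences.

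Expansins loosen the cell wall, and XTH enzymes cut and join its xyloglucan chains. Of 19 such genes of the list, 10 fell and none rose in Alc::LHY (median -0.71), against 14.5% and 13.7% of all genes. Of the 10, 9 were own falls, against 9.08% of all genes. By limma no change passed in wild type (median 0.30), where 2 were higher and 1 was lower at an unadjusted p under 0.05. Without background subtraction 3285 of all 21412 genes passed that unadjusted p in wild type, in either direction. EXPA11 had 8.31 and 8.36 in Alc::LHY at 4 h, against 10.81 and 10.38 at 0 h (-2.26 ± 0.25, adjusted p = 0.000359). EXPA1 had 10.42 and 10.19 at 4 h, against 12.18 and 11.74 at 0 h (-1.66 ± 0.21), and EXPA6 had 9.51 and 10.26 at 4 h, against 11.61 and 11.81 at 0 h (-1.82 ± 0.23). Neither replicate's values at 4 h reached those of 0 h for these 3 genes. They were picked by a small p on these same values, and 3019 of the 3097 called falls separated likewise. The separation is therefore no separate check. The falls of these 3 genes within Alc::LHY passed under all 16 alternatives, as did that of EXPA8, described above. The difference of EXPA11 (-1.43) was lost without either sample of I (adjusted p up to 0.0607). XTH9 (-1.53 ± 0.27), XTH24 (-1.66 ± 0.42) and XTH8 (-1.09 ± 0.23) fell too, whereas XTH17, XTH18, XTH19, XTH20, XTH22, XTH23 and XTH4 had changes between -0.25 and -0.07 that did not pass. Another expansin, EXPA20, was among the largest rises and is not on the list, so the family did not move as one. Leaving out single samples gave between 6 and 8 falls. By 8 to 9 h EXPA8 stood at 10.72 (S) and 10.30 (I) in Alc::LHY, above its level at 4 h, against 12.47 and 12.53 in wild type.

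**Figure D4:**
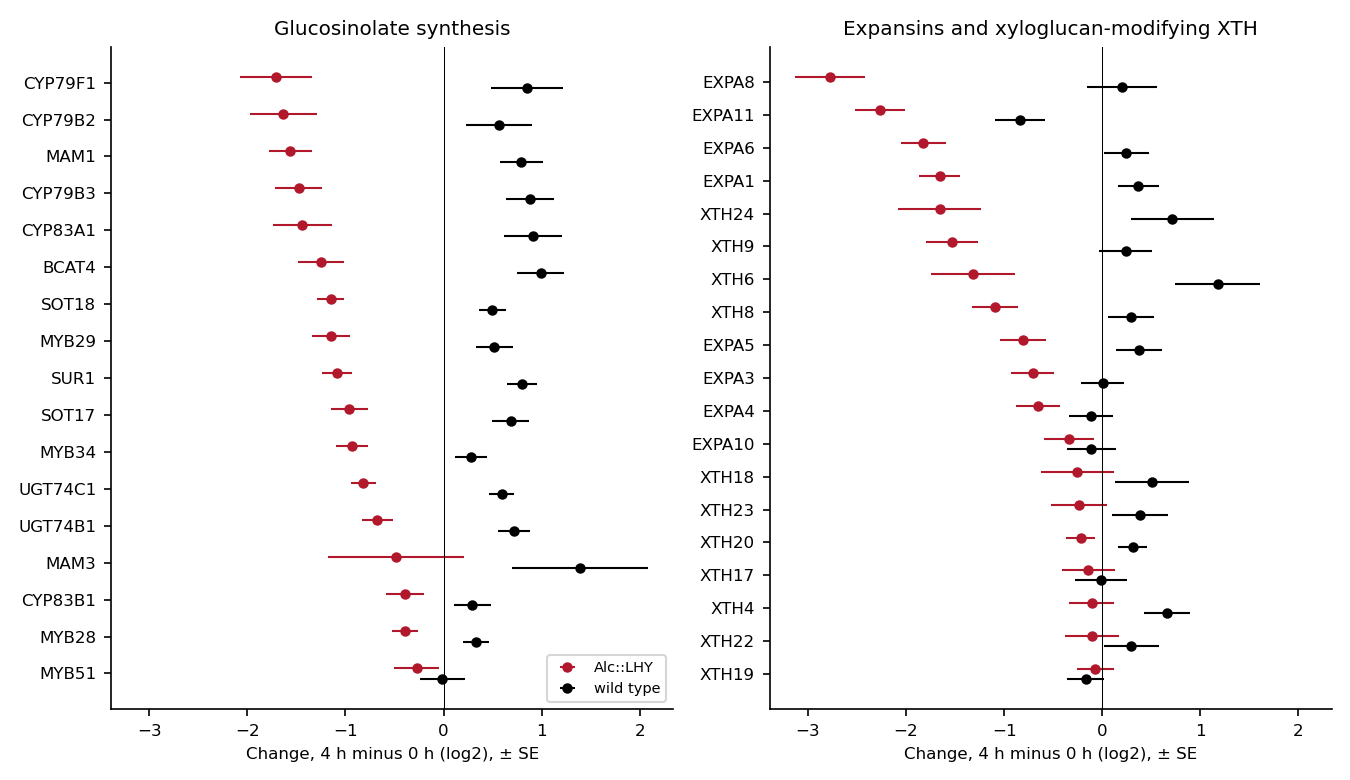
Change from 0 h to 4 h (log2, bars show ± SE of the fit) of the 17 glucosinolate synthesis genes tested and the 19 expansin and XTH genes, with Alc::LHY in red and wild type in black. Most red points of the glucosinolate genes lie left of 0 and the black ones right of it, and among the wall genes EXPA8 and EXPA11 lie farthest left.

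Genes of growth in shade and of phenolic compounds also fell in part. Of 9 genes of PIF, shade and auxin growth tested (of 12), 4 fell and none rose in Alc::LHY (median -0.81), against 14.5% and 13.7% of all genes. In wild type by limma no change passed and 3 were higher at an unadjusted p under 0.05. Over all genes 3285 of 21412 passed that unadjusted p in wild type, in either direction, without background subtraction. PIF5 went the other way in Alc::LHY, with changes of 0.86 (S) and 1.24 (I), and did not pass. PIF3, a factor that restrains light responses, had 8.83 and 8.50 in Alc::LHY at 4 h, against 9.68 and 9.95 at 0 h (-1.15 ± 0.15, adjusted p = 0.000835), and was an own fall, as was PIF1 (-1.06 ± 0.26). A second, dimmer probe of PIF3 changed by -0.31 (S) and -0.08 (I), and that of PIF1 by -0.35 and -0.10, each less than the one used. HFR1 (-1.17 ± 0.29), which binds and blocks PIF proteins, and XTR7 (-1.17 ± 0.28), a shade-induced wall enzyme, fell with no difference called. PIF1 lost its call without the 4 h sample of S or either 0 h sample (adjusted p up to 0.127; from 0.00981), XTR7 without the same samples (up to 0.153; 0.00547 to 0.227) and HFR1 whichever sample was left out (up to 0.135; from 0.000802). The difference of PIF1 (-1.36) was lost without either sample of S (up to 0.132), and that of PIF3 (-0.88) without the 0 h sample of I (0.0736). Left-out samples gave between 1 and 3 falls in this list. Among 16 phenylpropanoid and flavonoid genes tested (of 18), 5 fell and 1 rose in Alc::LHY (median -0.23), against 14.5% and 13.7% of all genes, and the median in wild type was 0.45. 4CL1, which activates cinnamic acids for lignin, had 9.66 and 10.15 in Alc::LHY at 4 h, against 11.32 and 11.33 at 0 h (-1.42 ± 0.14, adjusted p = 0.000202), while wild type had 11.14 and 11.30 at 4 h, against 11.34 and 11.15 at 0 h. PAL1 (-0.86 ± 0.21) and C4H (-0.56 ± 0.13), the first enzymes of the pathway, and the flavonoid enzymes CHI (-0.50 ± 0.11) and FLS1 (-0.82 ± 0.16) fell too, and all 5 were own falls. PAL2 rose by 0.45 ± 0.13. FLS1 lost its call without the 0 h sample of S (adjusted p = 0.0771; 0.00408 to 0.248 over the alternatives), CHI without either 0 h sample (up to 0.0821; 0.00459 to 0.0857) and C4H without either sample of I (up to 0.156; from 0.0101). Between 2 and 5 genes of the list fell with a sample left out.

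Of 21 starch genes tested, 14 fell and 1 rose in Alc::LHY (median -0.84), against 14.5% and 13.7% of all genes. In wild type 7 fell and 1 rose (median -0.43), against 0.299% and 0.542% of all, and over all genes no fall was called in wild type without the 0 h sample of S. A difference was called for 3 of the 21, all lower, against 12.2% of all genes with a lower and 9.52% with a higher difference. DPE2, which handles maltose from starch, had 9.51 and 9.25 in Alc::LHY at 4 h, against 10.47 and 10.48 at 0 h (-1.09 ± 0.11, adjusted p = 0.000176). In wild type it had 9.76 and 9.43 at 4 h, against 10.58 and 10.32 at 0 h (-0.86, adjusted p = 0.0142). PHS1 (-1.32 ± 0.15 in Alc::LHY, -1.02 in wild type) and PHS2 (-1.61 ± 0.25 and -1.36), the glucan phosphorylases, fell in both lines likewise. The 3 with a difference called were SS3, BAM3 and GBSS1, which is described above. SS3, a starch synthase (-0.89 ± 0.14 in Alc::LHY, -0.01 in wild type), and the amylase BAM3 (-1.57 ± 0.28 and -0.43) were own falls. The difference of SS3 (-0.87) was lost without the 4 h sample of S or the 0 h sample of I (adjusted p up to 0.0674). Leaving out the 0 h sample of I lowered the falls of the list in Alc::LHY to 6. Of 13 nitrogen assimilation and BT genes tested (of 14), 4 fell and none rose (median -0.67), against the same background. BT1 had 9.68 and 9.45 in Alc::LHY at 4 h, against 11.67 and 11.40 at 0 h (-1.97 ± 0.29), and was an own fall, as was the nitrite reductase NIR1 (-0.69 ± 0.20). BT4 fell by 1.19 ± 0.23, with no difference from wild type called. NIR1 lost its call whichever sample was left out (adjusted p up to 0.187; from 0.0216) and BT4 without the 0 h sample of S (0.0503; from 0.00298). The difference of BT1 (-1.79) was lost without the 0 h sample of S (0.0631), and that of NIR1 (-1) passed in 1 of the 4 fits with a sample left out. Between 1 and 3 members of that list fell with a sample left out.

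Genes of abscisic acid (ABA), a hormone of drought and dormancy, were followed by 3 lists, beside a background of 13.7% that rose and 14.5% that fell over all genes. Part of them stood higher in the 4 h sample of replicate S than in that of I. NCED4, a dioxygenase that cleaves carotenoids, had 8.71 (S) and 9.82 (I) in Alc::LHY at 4 h, against 10.87 and 11.56 at 0 h (-1.95 ± 0.32, adjusted p = 0.00221), while wild type had 11.31 and 11.74 at 4 h, against 10.99 and 11.01 at 0 h. It was an own fall. Its fall within Alc::LHY passed under all 16 alternatives, and its difference (-2.47) passed with any sample left out (adjusted p up to 0.0374) but not with median centring (0.187). Among 10 genes of ABA synthesis and breakdown tested (of 14), it and CYP707A2 (-0.75 ± 0.24), which breaks ABA down, were the 2 that fell, and none rose (median -0.43). No difference from wild type was called for CYP707A2. Of 22 signalling genes tested (of 26), 4 fell and 2 rose (median -0.38). The kinase SNRK2.3 (-0.97 ± 0.14), its relative SNRK2.2 (-0.56 ± 0.14), the factor ABF1 (-1.38 ± 0.24) and the receptor PYR1 (-0.66 ± 0.18) fell, and the phosphatases HAI3 (1.71 ± 0.44) and HAI2 (adjusted p = 0.031) rose. Of the 4 falls only that of PYR1 was an own fall, and no difference from wild type was called for SNRK2.3, SNRK2.2 and ABF1. In wild type, 6 of the 22 were lower and 3 higher at an unadjusted p under 0.05 by limma. Over all genes 3285 of 21412 passed that p in wild type, in either direction, without background subtraction. HAI3 had 9.23 (S) and 7.50 (I) in Alc::LHY at 4 h, against 6.52 and 6.77 at 0 h, and HAI2 had 10.01 and 8.52 at 4 h, against 8.20 and 8.14 at 0 h. For both, the sample of S at 4 h was far above that of I. Of 11 genes of ABA and drought response, 2 rose and 1 fell. P5CS1, which makes proline, had 10.63 and 9.60 in Alc::LHY at 4 h, against 12.00 and 11.65 at 0 h (-1.71 ± 0.16, adjusted p = 0.000146), and was an own fall. RD29A, a drought and cold marker, had 9.50 (S) and 7.55 (I) at 4 h, against 6.83 and 6.95 at 0 h (1.63 ± 0.47), and LTI30 rose by 0.71 ± 0.16. No difference from wild type was called for LTI30. The factor RD26 showed the same split of replicates, with 11.00 and 8.97 at 4 h, against 8.61 and 9.08 at 0 h, and did not pass. Without the 4 h sample of S the rises of HAI3, RD29A and LTI30 were lost, and likewise without the 0 h sample of S and, for RD29A, that of I (adjusted p up to 0.227, 0.223 and 0.119; over the alternatives from 0.00786, 0.00187 and 0.00711). SNRK2.2 lost its call without the 4 h sample of S or either 0 h sample (up to 0.118; from 0.0143) and CYP707A2 without either 4 h sample or the 0 h sample of S (up to 0.433; from 0.0191). The differences of HAI3 (1.87) and RD29A (1.81) were lost in the same fits and, for HAI3, without the 0 h sample of I too, and that of P5CS1 (-0.91) without either sample of I. What set the sample of S apart was not tested.

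Of 9 cold response genes tested (of 10), 3 rose and none fell (median 0.26), against 13.7% and 14.5% of all genes. KIN1 had 12.43 (S) and 11.20 (I) in Alc::LHY at 4 h, against 9.12 and 8.60 at 0 h (2.95 ± 0.51, adjusted p = 0.00286), while wild type had 7.89 and 8.84 at 4 h, against 8.70 and 8.27 at 0 h. Its near copy COR6.6 had 15.80 and 15.79 in Alc::LHY at 4 h, against 13.80 and 13.82 at 0 h (1.99 ± 0.39), and 11.55 and 13.08 in wild type at 4 h, against 13.40 and 13.34 at 0 h. Both were own rises, although the difference of KIN1 (3.07) was lost without either sample of S (adjusted p up to 0.0768). Since the 2 genes are alike in sequence their probes may share signal, which was not tested. COR15A (0.79 ± 0.37), COR47 (0.19 ± 0.47) and CBF3 (-0.17 ± 0.15) did not pass, so KIN1 and COR6.6 rose without a rise called for these others. COR47 did not stay level, since its replicates moved in opposite directions, by 1.27 in S and -0.89 in I. ZAT12, a zinc finger gene of many stresses, rose by 1.35 ± 0.36, with no difference from wild type called. Its rise was lost without the 4 h sample of S or either 0 h sample (adjusted p up to 0.19; from 0.00148), and that of COR6.6 without the 0 h sample of I (0.0571; from 0.000438). Between 1 and 4 genes of this list rose with a sample left out.

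Genes that answer to low oxygen or use ethanol bear on the inducer. Of 14 tested (of 17), 1 rose and 1 fell, with a median change of 0.09, against 13.7% and 14.5% of all genes. With a sample left out 0 to 3 rose, 3 of them without the 4 h sample of I. PDC2, a pyruvate decarboxylase of fermentation, had 13.58 (S) and 12.97 (I) in Alc::LHY at 4 h, against 12.35 and 12.83 at 0 h, and did not pass (adjusted p = 0.08). ADH1, alcohol dehydrogenase, had 10.30 (S) and 8.15 (I) in Alc::LHY at 4 h, against 8.92 and 7.83 at 0 h (0.85 ± 0.34, adjusted p = 0.0913), and did not pass. ALDH2C4, an aldehyde dehydrogenase of phenolic synthesis, fell by 1.39 ± 0.24 as an own fall, and HRA1, a brake on the low-oxygen response, rose by 0.43 ± 0.13. HRA1 lost its call whichever sample was left out (adjusted p up to 0.274; from 0.0111), and so did its difference (0.54; up to 0.177). Of 8 heat shock genes tested (of 9), HSP17.4 rose (1.43 ± 0.37; lost without either 0 h sample, adjusted p up to 0.166, from 0.0079). It was the 1 rise called among the 8 and none fell, against 13.7% and 14.5% of all genes. No difference from wild type was called for HSP17.4. The median change of the 8 was 0.522, and it was 1.015 without the 4 h sample of I and 0.124 without that of S. Without the 0 h sample of S it was 0.489, and without that of I 0.611. Of 9 defence genes tested (of 12), 2 rose and none fell, against 13.7% and 14.5%. The 2 were PR5 and ICS1, and for neither was a difference from wild type called. Genes of the defence hormone jasmonate went both ways without passing. LOX2 changed by -0.42 (S) and -1.61 (I) in Alc::LHY, and VSP1 by 0.83 and 0.65. PR5, a marker of the salicylate defence, had 11.21 and 10.35 in Alc::LHY at 4 h, against 8.15 and 7.58 at 0 h (2.92 ± 0.29, adjusted p = 0.00018). Wild type had 10.96 and 9.30 at 4 h, against 7.87 and 7.70 at 0 h (2.35, adjusted p = 0.0136), so PR5 rose in both lines with no difference called. ICS1, which makes the precursor of salicylate, rose by 1.11 ± 0.24 (lost without the 4 h sample of S or either 0 h sample, adjusted p up to 0.0994, from 0.00301).

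Markers of single cell types were followed because whole seedlings hold many. Of 7 root cell markers tested (of 10), 1 rose and 2 fell, against 13.7% and 14.5% of all genes. COBL9, needed for root hair growth, had 10.28 and 10.59 in Alc::LHY at 4 h, against 8.09 and 8.75 at 0 h (2.02 ± 0.38, adjusted p = 0.00436), and its difference from wild type (2.14) was lost without either sample of S (up to 0.101). SHR (-1.01 ± 0.16) and SCR (-0.89 ± 0.13), which pattern the inner root layers, fell as own falls. A second, dimmer probe of SCR (mean level 6.42) changed by -0.09 (S) and -0.10 (I), less than the one used. RHD6 (-0.10 ± 0.29) and GL2 (-0.12 ± 0.16), regulators of root hair fate, and EXPA7 (0.79 ± 0.50), a root hair expansin, did not pass, so root hair genes did not move as a group. The 3 seed storage genes tested (of 4) had changes between -0.78 and -0.08, and by limma none passed at an unadjusted p under 0.05 or after adjustment. Of the 294 genes of all lists, 264 were tested.

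**Figure D5:**
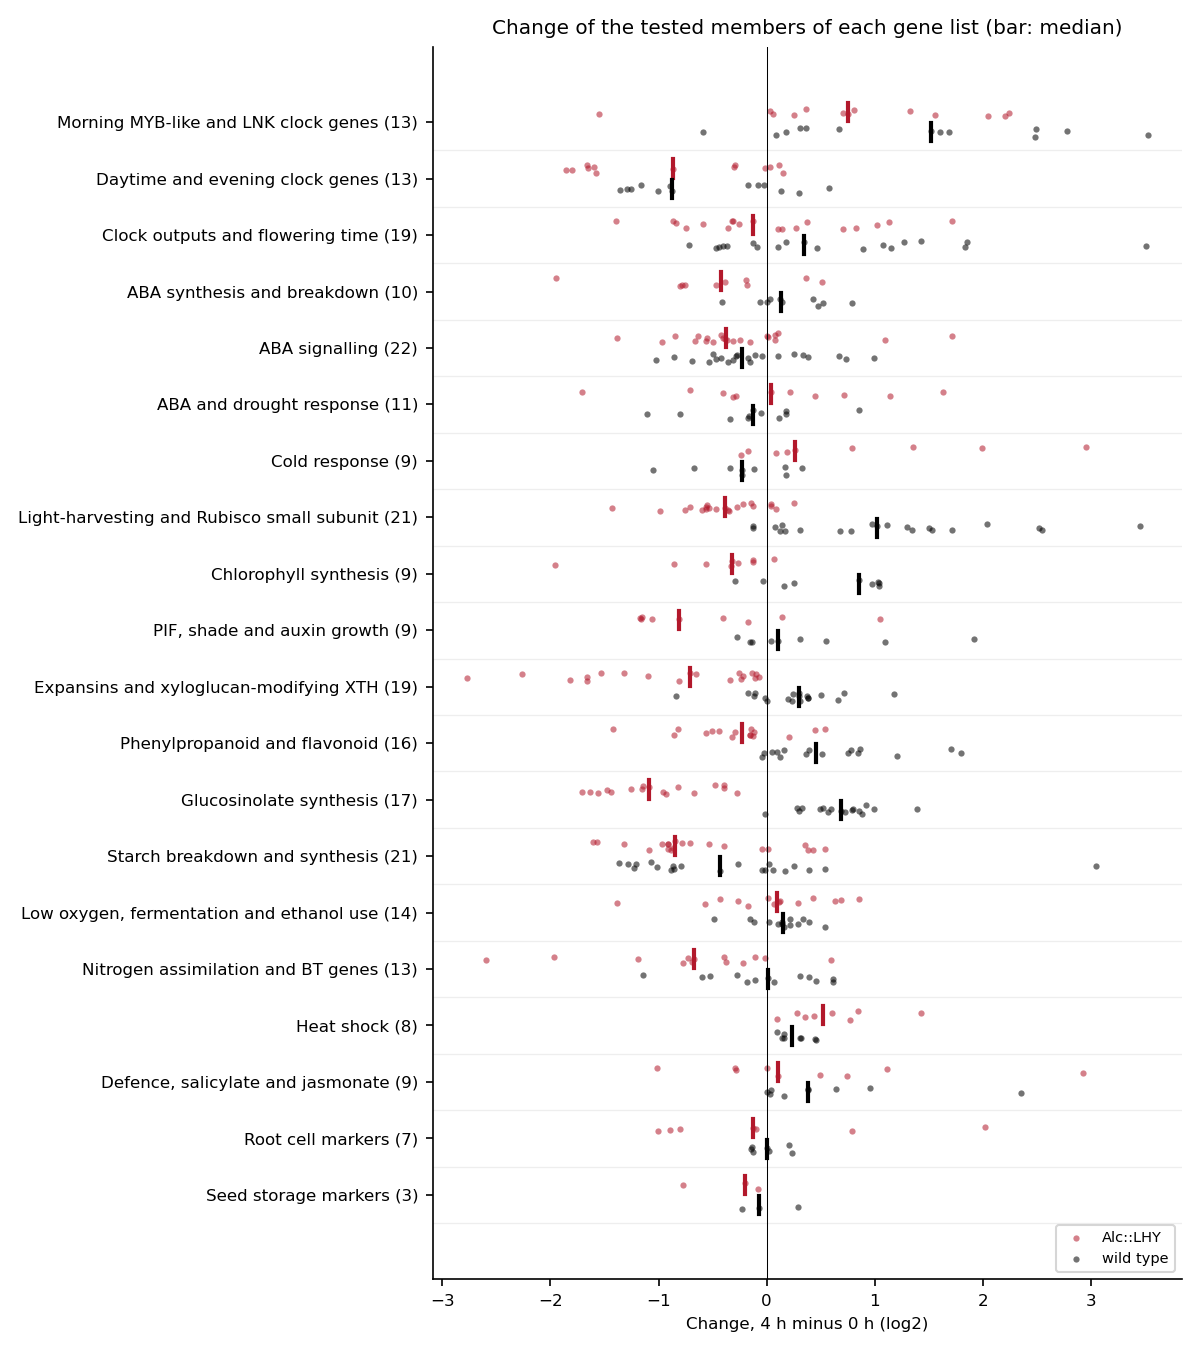
Change from 0 h to 4 h (log2) of the tested members of each gene list, with Alc::LHY in red above and wild type in black below, each point a gene and each bar the median, and the number of genes tested in parentheses. The red and black medians lie apart for glucosinolate synthesis (-1.08 and 0.69), light-harvesting genes (-0.39 and 1.02) and the expansin and XTH genes (-0.71 and 0.30), and close together for the daytime and evening clock genes (-0.86 and -0.88).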

How the data were processed

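RNA of Alc::LHY and wild-type seedlings was measured on 8 two-colour Agilent arrays. The deposited scanner files give spot intensity per channel, read by the authors with Agilent Feature Extraction 10.7.3.1 per the submitters' processing notes, and a log10 ratio of red over green per the file headers. The authors' deposited value table of log10 ratios, which lay within 0.0049 of the scanner files' ratios turned to Alc::LHY over wild type, served as an alternative. Median spot signals were used, since mean signals are not among the columns used here. Background was corrected with normexp (offset 50) and arrays were normalized by loess within and Aquantile between arrays in limma 3.58.1 (R 4.3.3, with statmod 1.5.0 and the data.table package, version 1.17.8). Control features (1417 of 45220) and 161 outlier spots were left out, and no spot was saturated. Probes were kept if either channel was well above background on at least 2 of the 8 arrays, of whatever line or time. A value on at least 6 arrays was also needed, and 28465 of 43603 probes were kept. The brightest probe stood for a gene. Of 35161 accessions of the probe annotation, 26259 matched a locus of the TAIR10.1 table, and no coordinates are given because the build of the file headers differs.

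All 16 channels entered one separate-channel fit (intraspot correlation 0.332, 6 residual degrees of freedom) with terms for dye and replicate, so each group of 2 shares an estimate of the spread. Deviations of same-lettered replicates at 0 h and 4 h correlated at 0.438 across genes in the Alc::LHY channel, and the letters mark shared slides. An own change is a called change in Alc::LHY with a called difference of the same sign. A bound sets the group above background against, per array, the higher of the dim probe's level and the lowest level well above background. The script was tested on simulated data. The members of the lists and the line's split into classes were chosen with earlier results of these data known. Named genes are, in Alc::LHY, the 12 largest called rises and falls, the 4 largest bounds each way, up to 6 genes per class and direction, the 4 called list members of smallest p, all clock list members, LHY and TA44692_3702. Other genes named were picked for their role after their values were seen. Promoter motifs were not analysed here.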

Additional observations from a re-analysis of the deposited data

Results flagged for a closer look

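The change from 0 h to 4 h in Alc::LHY differed from that in wild type by limma's test of the difference for 2038 genes with a higher and 2611 with a lower change in Alc::LHY. Of the 123 named genes, 74 are among them, 26 higher and 48 lower, and they are listed here with the Alc::LHY change minus the wild-type change in log2 units. Higher differences of over 3 units were measured for TA44692_3702 (7.75), SBTI1.1 (5.55), AT4G29640 (5.50), AT5G62730 (5.18), AT1G12630 (4.97), AT3G63360 (4.93), EXL4 (4.64), BG3 (4.40), EMB3120 (4.04), EXPA20 (3.91), RUG2 (3.91), CCR1 (3.90), CYS2 (3.88), AT1G45160 (3.64), SOB3 (3.43), AT4G25390 (3.43), KIN1 (3.07) and COR6.6 (3.04). Smaller ones were measured for COBL9 (2.14), HAI3 (1.87), RD29A (1.81), AT4G33490 (0.55), AT2G37200 (0.55), HRA1 (0.54), RVE5 (0.53) and AT5G27280 (0.51). Differences of -2 units or lower were measured for LHCB2.3 (-3.67), LHCB2.2 (-3.27), EXPA8 (-2.97), AT1G52000 (-2.57), CYP79F1 (-2.56), GBSS1 (-2.51), LHCB3 (-2.50), XTH6 (-2.49), AT1G66100 (-2.49), BBX16 (-2.48), FRO8 (-2.47), MBP1 (-2.47), AKN2 (-2.47), NCED4 (-2.47), MAM1 (-2.35), GASA6 (-2.11), EXPA6 (-2.07) and EXPA1 (-2.03). A middle range held CHE (-1.93), ALDH2C4 (-1.92), GUN4 (-1.90), SUR1 (-1.88), BT1 (-1.79), PORB (-1.66), SOT18 (-1.65), FBA5 (-1.63), CRD1 (-1.53), CCA1 (-1.48), EXPA11 (-1.43), UGT74C1 (-1.41), 4CL1 (-1.39), PIF1 (-1.36) and FLS1 (-1.33). The smallest lower differences were those of SHR (-1.22), LNK2 (-1.17), SCR (-1.12), CAT3 (-1.03), BBX25 (-1.01), NIR1 (-1), C4H (-0.92), P5CS1 (-0.91), CHI (-0.90), RVE8 (-0.88), PIF3 (-0.88), SS3 (-0.87), AT1G36940 (-0.73), AT2G26695 (-0.65) and BBX22 (-0.65). Groups of 2 samples are too small to look for a single sample far from the others.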

How the results depend on the processing

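The number of arrays, 2 per group, limits every comparison, and wild-type results depend on processing far more than those within Alc::LHY. The counts of rises and falls in Alc::LHY (2939 and 3097) were 716 and 1462 when loess gave way to median centring, 804 and 1920 without normalization between arrays, and 1536 and 1940 on the 4 arrays alone. Leaving out a sample gave 1257 to 2159 rises and 1442 to 2219 falls. No replicate block gave 2203 and 2275. In wild type (116 and 64), counts were 57 and 26 with the scanner software's processed signals, 3 and 1 with median centring, 15 and 4 without normalization between arrays, 19 and 3 with no replicate block, 45 and 16 with neither dye term nor block, and 0 and 0 by limma on the 4 arrays alone, where 2153 had an unadjusted p under 0.05. Leaving out a sample gave 1 to 150 and 0 to 159. For the difference (2038 higher, 2611 lower), median centring left 11 and 1 called, the 4 arrays alone 611 and 1137, and left-out samples 841 to 1245 and 1062 to 1830. Own rises and falls (1671 and 1945) were 11 and 1 with median centring and 570 and 922 on the 4 arrays alone, and own rises 741 without normalization between arrays, and left-out samples gave 667 to 909 and 713 to 1214. The genes that only failed to follow (74) were 33 with processed signals, 0 with median centring, 10 without normalization between arrays, 9 with no replicate block, 25 with neither dye term nor block, 0 on the 4 arrays alone, and 1 to 122 with a sample left out. The cause of these differences was not tested. Differences from within-array log ratios were called for 1091 higher and 1448 lower with the scanner software's values and for 1089 and 1444 with the authors' table. Within-array ratios after loess, chosen after seeing the data, gave 1461 and 2251. Of the 103 named genes called in Alc::LHY, 60 passed under all 16 alternatives and 62 with any sample left out, 22 lost their call without the 4 h sample of S, 15 without that of I, 34 without the 0 h sample of S and 30 without that of I. None of the 123 named genes changed sign among the called values.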
